A study of Homo sapiens with 6 samples.

Results

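The genes described here are the 248 well-expressed human ZNF genes of HCT116 cells, those whose symbol is ZNF followed by a number and whose mean level over the 6 libraries was at least 15 CPM (counts scaled to the library's total count). They were chosen from 478 ZNF symbols among the 28278 gene symbols measured. The choice used the mean level over both groups and not the difference between them, so levels are given as a description and differences are tested. Of the 230 ZNF symbols under that level, 148 had enough counts to be tested and 82 did not, whereas the 248 members all passed the filter on low counts. All 248 are annotated as protein-coding, and they lie on 21 chromosomes, 110 of them on chromosome 19.

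HCT116 is an established human line from a colon carcinoma. Wild-type HCT116 cells carrying a scrambled shRNA (shControl) were compared with HCT116 cells carrying an shRNA that targets TRIM21 (shTRIM21), with 3 RNA-seq libraries per group. Both shRNAs were delivered by lentivirus, puromycin at 5 µg/ml was present in both groups from 36 h after infection, and both groups were taken at day 21. TRIM21 is a cytosolic E3 ubiquitin ligase that binds the constant part of antibodies, and the comparison asks which RNAs differ when its transcript is reduced. A single shRNA per group is labelled, so an effect of the TRIM21 decrease and an effect of that one shRNA cannot be told apart. Whether the libraries, labelled as biological replicates, stem from separate cultures is not stated, so p-values reflect the spread among these 6 samples alone, and that spread may be technical.

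Most ZNF genes encode C2H2 zinc finger proteins, in which short units held together by a zinc ion, each gripped by a pair of cysteines and a pair of histidines, sit in a row and read DNA a few bases at a time. Many carry a KRAB domain at the front, which binds the co-repressor TRIM28 (KAP1). TRIM28 in turn recruits SETDB1, which methylates histone H3 at lysine 9, and HP1 proteins, which package the target as heterochromatin, and many of the targets are transposable elements. The genes arose by repeated local duplication, above all on chromosome 19, so neighbours often resemble each other in sequence and each also has its own order of fingers.

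The DNA that encodes 1 finger is shown for 6 members on which the results below turn, 4 neighbours on chromosome 7 that all fell and 2 neighbours on chromosome 18 that moved in opposite directions. Each line runs over the 78 bases, read 5′ to 3′ along the coding strand of the GENCODE transcript (GRCh38), of 1 finger and the linker after it, and the capitals mark the codons of the cysteines and histidines that hold the zinc.
ZNF107: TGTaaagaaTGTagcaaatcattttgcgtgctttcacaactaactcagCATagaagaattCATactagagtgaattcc
ZNF138: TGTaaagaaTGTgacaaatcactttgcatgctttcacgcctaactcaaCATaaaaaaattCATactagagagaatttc
ZNF273: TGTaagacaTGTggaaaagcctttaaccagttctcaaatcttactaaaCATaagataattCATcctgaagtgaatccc
ZNF117: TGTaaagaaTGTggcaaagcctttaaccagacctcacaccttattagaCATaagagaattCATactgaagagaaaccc
ZNF24: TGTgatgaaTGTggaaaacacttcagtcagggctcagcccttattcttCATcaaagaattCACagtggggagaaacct
ZNF397: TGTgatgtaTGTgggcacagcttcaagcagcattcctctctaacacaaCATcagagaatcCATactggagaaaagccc
Each is the first finger of its protein found with this spacing, and fingers were not matched by position between genes. In these stretches ZNF107 and ZNF138 had 67 of 78 bases in common and ZNF273 and ZNF117 had 64. The other chromosome 7 pairs had 51 to 55. ZNF24 and ZNF397 had 51, and pairs from different chromosomes had 46 to 56. Over the aligned coding sequence, the 4 chromosome 7 genes were 80.9% to 87.8% identical to each other, with 80.9% between ZNF273 and ZNF117 and 87.8% between ZNF107 and ZNF117. Counted were fingers with 2 residues between the cysteines, 12 up to the first histidine and 3 to 5 between the histidines. By that count, in 1 transcript per gene, ZNF107 holds 16 fingers, ZNF273 and ZNF117 hold 10 each, and ZNF138 holds 2.

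TRIM21 stood at 11.8, 11.7 and 15.8 CPM in shControl replicates 1 to 3 and at 8.83, 8.18 and 6.68 CPM in shTRIM21, on the scale adjusted for library composition (TMM) that is used for per-library values from here on. All shTRIM21 libraries were below all shControl libraries, with a log2 fold change of -0.73 (standard error, SE, 0.17; adjusted p = 0.0124), and without shTRIM21 replicate 3 its adjusted p was 0.0734. Without both replicates 3 it was -0.45 (adjusted p = 0.114). Library totals ran from 22656160 to 27123657 counts, and genes of ribosomal RNA took 6.69% to 14.7% of counts in shControl and 9.55% to 15.2% in shTRIM21, lowest in replicate 3 of each group. Of 11 epithelial marker genes, 7 stood at 5 CPM or more, among them EPCAM and KRT8. CDH1 was at 4.1 CPM, KRT19 at 1.17, CDH17 at 0.795 and ESRP1 at 0.106. The fibroblast (8), endothelial (6) and leukocyte (8) markers were all under 1 CPM, with sums of at most 0.487 CPM in any library.

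The 248 members ranged in mean level from 15.06 to 348 CPM with a median of 40.1, and 22 reached 100 CPM. The best expressed were ZNF664 (348 CPM), ZNF121 (346), ZNF146 (260), ZNF638 (237), ZNF106 (228) and ZNF655 (209). ZNF638, also known as NP220, silences unintegrated retroviral DNA together with the HUSH complex. None of these 6 passed the test between the groups. ZNF146 came nearest and passed in 10 of the alternative fits, with 266, 262 and 317 CPM in shControl and 217, 251 and 244 CPM in shTRIM21, and its log2 fold change was -0.25 (SE 0.08; adjusted p = 0.0512). Without shControl replicate 2 its adjusted p was 0.0391, and ZNF106 (-0.17; adjusted p = 0.0762) passed without shControl replicate 3 (0.0237). Per kilobase of transcript, ZNF207 was highest at 89.1 CPM per kb, ahead of ZNF562 at 83.1, ZNF146 at 68.8 and ZNF664 at 68.1. At the edge of the rule, ZNF502 (15.06 CPM), ZNF699 (15.08) and ZNF74 (15.22) were just inside and ZNF57 (14.86), ZNF852 (14.76) and ZNF17 (14.75) just outside.

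Between the groups, 25 of the 248 members fell in shTRIM21 and 7 rose, by edgeR's quasi-likelihood test at a threshold of 0.05, with Benjamini-Hochberg adjustment over the 14002 genes tested. The other 216 did not pass. The falling members were 10.1% of the 248, beside 4.66% of all tested genes and 7.1% of the 8325 tested genes at 15 CPM or more. The rising members were 2.82%, beside 4.43% of all tested genes and 5.79% of those at 15 CPM or more, and in either direction 9.08% of all tested genes were called. The changes were small: the median size of a called log2 fold change was 0.34 in the members and 0.39 in all called genes, and 1 called member, ZNF273, changed by 1.5-fold or more. No test of the members as a list was made, so these shares are a description.

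Counted over all 248 members, called or not, more were lower than higher in shTRIM21. A negative log2 fold change was found in 150 (60.5%) and a positive one in 98. Negative values made up 48.2% over all tested genes and 51.7% over those at 15 CPM or more. The members' median was -0.04, against 0.01 over all tested genes and -0.01 over those at 15 CPM or more. Every shTRIM21 library was lower than every shControl library for 56 members (22.6%, against 13.9% of all tested genes) and higher for 25 (10.1%, against 14.1%). These counts include the called members, and the shares were not taken over genes at 15 CPM or more. ZNF genes under the level of 15 CPM did not share the lean, with 1 decrease, 5 increases and a median of 0.06 in 148 tested. Their share of negative values was 43.2%. In the whole table, too, that share differed with level, being lower over all tested genes than over those at 15 CPM or more. Level and ZNF membership were not separated here, and the difference between these sets was not tested. Of all counts, the members together took 1.35% ± 0.0693 in shControl and 1.28% ± 0.0656 in shTRIM21 (SD, n = 3), and those groups overlapped: shTRIM21 replicate 3 was at 1.34%, above shControl replicates 1 and 2 at 1.31% each.

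The counts of calls moved with single libraries, in the members and in the whole table alike. The members' median log2 deviation from each gene's mean was -0.086 in shTRIM21 replicate 1 and 0.063 in shControl replicate 3, while the other 4 libraries lay between 0.003 and 0.033. Without shTRIM21 replicate 1 the test called 11 decreases and 6 increases, and 694 genes in the whole table against 1272 with all libraries. The decreases numbered 13 without shControl replicate 1, 13 without shTRIM21 replicate 2 and 10 without shTRIM21 replicate 3, with 683, 673 and 602 genes called in the whole table. The increases numbered 13 without shControl replicate 3, with 1737 genes called in all, 3 without shControl replicate 1 or shTRIM21 replicate 3, and 2 without shControl replicate 2 (801 genes in all) or shTRIM21 replicate 2. Without both replicates 3, the libraries with the least ribosomal RNA, 21 fell and 10 rose, with 1459 genes called in all.

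**Figure D1:**
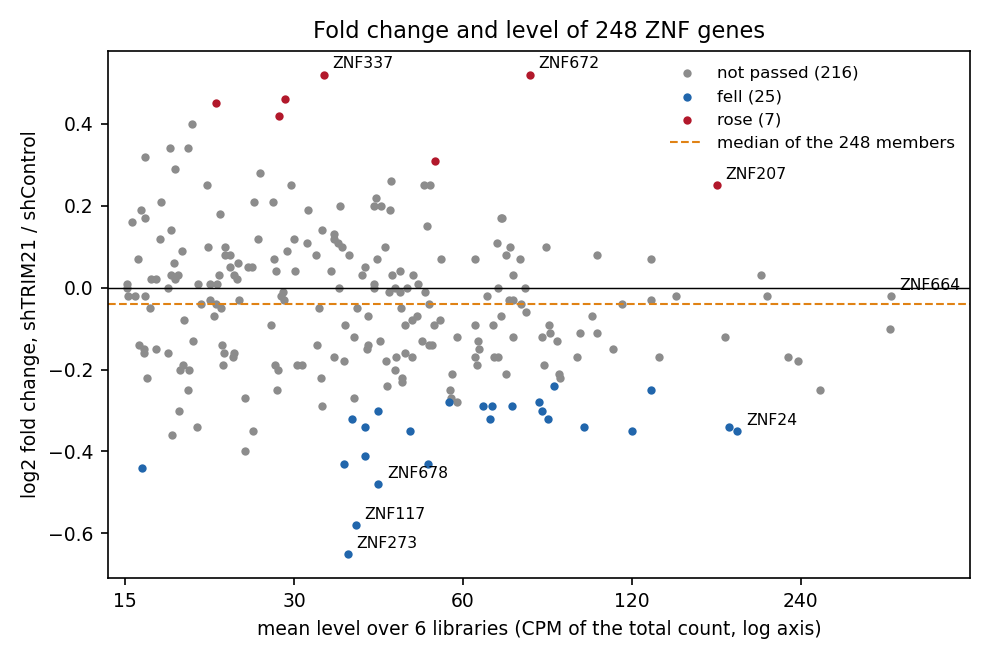
Each point is 1 of the 248 ZNF genes, with its mean level over 6 libraries on a log axis (CPM of the total count) and its log2 fold change of shTRIM21 over shControl, blue for the 25 that fell, red for the 7 that rose and grey for the 216 that did not pass. The decreases lie between -0.65 and -0.24 and the dashed line is the members' median of -0.04.

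ZNF273 and ZNF117, neighbours on chromosome 7, fell most. ZNF273 stood at 42.1, 42.3 and 52.2 CPM in shControl replicates 1 to 3 and at 30.2, 30.5 and 26.7 CPM in shTRIM21. The groups were well separated, with a log2 fold change of -0.65 (SE 0.10; adjusted p = 0.000587). ZNF117 stood at 46.0, 48.6 and 44.7 CPM in shControl and 28.1, 33.2 and 31.6 CPM in shTRIM21, a log2 fold change of -0.58 (SE 0.09; adjusted p = 0.000574). ZNF107, next but one to ZNF273, stood at 129, 136 and 138 CPM against 105, 103 and 107 CPM, with little spread inside either group (-0.35, SE 0.06; adjusted p = 0.00194). ZNF138, which lies between ZNF107 and ZNF273, stood at 37.1, 37.6 and 51.7 CPM in shControl and 28.2, 32.9 and 32.6 CPM in shTRIM21. Its fold change of -0.43 (SE 0.12; adjusted p = 0.0292) became -0.25 (adjusted p = 0.106) without shControl replicate 3, its highest library. It also did not pass without shTRIM21 replicate 1 (-0.36; adjusted p = 0.127), 2 (-0.47; 0.0705) or 3 (-0.47; 0.08).

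These 4 genes belong to a run of 6 members within 0.881 Mb (chr7:64519884-65401135, GRCh38), and the other two members of the run did not pass. In order along the chromosome they are ZNF680 on the minus strand, ZNF107 (chr7:64666083-64711582), ZNF138 (chr7:64794388-64833681) and ZNF273 (chr7:64870172-64930966) on the plus strand, ZNF117 (chr7:64971776-65006684) on the minus strand and ZNF92 on the plus strand. ZNF680, at one end, stood at 46.0, 52.2 and 56.0 CPM against 47.2, 55.1 and 51.4 CPM, with a log2 fold change of -0.01 (SE 0.09; adjusted p = 0.983). ZNF92, at the other end, stood at 57.1, 62.3 and 83.1 CPM against 54.9, 68.2 and 55.5 CPM, with overlapping groups (-0.19, SE 0.12; adjusted p = 0.369). ERV3-1, an endogenous retroviral gene whose transcripts overlap those of ZNF117 on the same strand, gave -0.28 (SE 0.29; adjusted p = 0.618). Reads of near-copies could have been exchanged in counting: of all the 50-base windows of its transcript, ZNF273 had 7.64% and ZNF117 3.72% in common with transcripts of other genes. For ZNF273 the main partner was ZNF680, whose values overlapped between the groups. For ZNF107 it was ZNF724, which gave -0.27 (SE 0.09; adjusted p = 0.0877). Whether reads were exchanged was not tested.

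The promoters of 3 of the neighbours that fell are shown. They run from 250 bases before to 50 after the RefSeq start (GRCh38.p14), all on the plus strand, at chr7:64665883-64666182 for ZNF107, chr7:64794178-64794477 for ZNF138 and chr7:64903023-64903322 for ZNF273, and capitals mark matches to the motifs searched on both strands: CCAATC (NFY), CCGGAAG (ETS factors, CTTCCGG on the other strand), GGGCGGG (SP1) and GCGCATGC (NRF1). RefSeq gives ZNF273 a pair of such windows, of which the second is shown.
ZNF107: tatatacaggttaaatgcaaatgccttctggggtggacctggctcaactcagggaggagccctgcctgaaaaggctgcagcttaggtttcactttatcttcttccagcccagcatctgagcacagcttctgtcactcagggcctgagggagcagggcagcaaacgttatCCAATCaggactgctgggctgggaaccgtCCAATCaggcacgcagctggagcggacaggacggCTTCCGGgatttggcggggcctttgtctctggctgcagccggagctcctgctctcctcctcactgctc
ZNF138: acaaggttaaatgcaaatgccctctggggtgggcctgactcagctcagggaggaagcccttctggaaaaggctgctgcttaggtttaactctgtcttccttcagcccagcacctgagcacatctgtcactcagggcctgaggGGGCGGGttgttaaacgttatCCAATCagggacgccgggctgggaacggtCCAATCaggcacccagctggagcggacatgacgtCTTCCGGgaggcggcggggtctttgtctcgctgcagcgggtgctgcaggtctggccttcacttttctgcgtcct
ZNF273: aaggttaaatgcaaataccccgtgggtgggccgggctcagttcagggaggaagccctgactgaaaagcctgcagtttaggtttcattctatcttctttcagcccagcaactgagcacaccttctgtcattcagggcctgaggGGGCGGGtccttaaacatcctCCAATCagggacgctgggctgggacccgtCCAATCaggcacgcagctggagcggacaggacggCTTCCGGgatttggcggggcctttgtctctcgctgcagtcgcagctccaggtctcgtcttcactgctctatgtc
All 3 hold the same arrangement, a pair of CCAATC 29 bases apart followed 34 bases on by CTTCCGG. In ZNF107 these begin at bases 170, 199 and 233 of the window, and in ZNF138 and ZNF273 at 164, 193 and 227, with GGGCGGG in addition at 143. The first window of ZNF273 (chr7:64877353-64877652) holds none of them and instead has GCGCATGC on both strands at 184 and 186, which overlap. The window of ZNF117 (chr7:64990987-64991286, minus strand), with 42.3% GC against 57.7% to 59% in the 3 windows shown, held no match to any motif searched. Some of these RefSeq starts lie inside the genes as GENCODE places them, 7.4 and 33.1 kb from the GENCODE start for the first and second windows of ZNF273 and 15.6 kb for ZNF117, so these may not be the promoters used in HCT116 cells. A match is a run of letters and not a measured binding site. The arrangement was not looked for in ZNF680 and ZNF92, the members of the run that did not pass. Whether it goes with the decreases was not tested.

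Outside that run, the largest decreases were in ZNF678, ZNF615, ZNF180 and ZNF765. ZNF678 stood at 50.7, 50.4 and 47.2 CPM in shControl and at 32.3, 35.4 and 38.6 CPM in shTRIM21 (log2 fold change -0.48, SE 0.09; adjusted p = 0.00275). ZNF180 was the tightest of them, at 58.5, 57.9 and 62.3 CPM against 43.6, 43.8 and 44.9 CPM (-0.43, SE 0.08; adjusted p = 0.00194). ZNF765 stood at 44.9, 44.4 and 48.2 CPM against 32.7, 38.7 and 31.8 CPM (-0.41, SE 0.10; adjusted p = 0.0107), and without shTRIM21 replicate 1 (0.0501) or 3 (0.0735) it did not pass. ZNF615, among the lowest expressed at 18, 16.8 and 20.7 CPM against 13.5, 13.4 and 13.9 CPM, passed narrowly (-0.44, SE 0.13; adjusted p = 0.0408), and its adjusted p was 0.0534 to 0.124 when any single library was left out.

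Well-expressed members fell as well. ZNF24, a SCAN-domain protein known to repress VEGFA, stood at 204, 212 and 208 CPM in shControl and at 147, 171 and 170 CPM in shTRIM21 (-0.35, SE 0.07; adjusted p = 0.00334). ZNF770 moved by about as much, from 204, 192 and 205 CPM to 142, 164 and 168 CPM (-0.34, SE 0.07; adjusted p = 0.00452). For both, shTRIM21 replicate 1 was the lowest library. ZNF721 stood at 115, 109 and 107 CPM against 81.8, 93.7 and 85.6 CPM (-0.34, SE 0.07; adjusted p = 0.00545).

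The rest of the 15 largest decreases were ZNF738, ZNF480, ZNF318 and ZNF195, at log2 fold changes of -0.35 to -0.32. ZNF318 showed the smallest spread, with 73.5, 74.4 and 75.3 CPM against 59.8, 60.7 and 58.4 CPM (SE 0.07; adjusted p = 0.00931), and its adjusted p was 0.0555 without shTRIM21 replicate 3. ZNF195 (adjusted p = 0.015) was -0.21 without both replicates 3 (0.0927), and it did not pass without shControl replicate 1 (0.0572) or shTRIM21 replicate 3 (0.105). ZNF738 (adjusted p = 0.0214) lost its call in 5 and ZNF480 (adjusted p = 0.0244) in 4 of the 6 fits that left out 1 library, at adjusted p of 0.0551 to 0.0845 and 0.0656 to 0.109.

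The 10 remaining decreases, named here after their values were seen, lay between -0.32 and -0.24. They were ZNF251, ZNF551, ZNF431, ZNF66, ZNF28, ZNF473, ZNF266, ZNF468, ZNF451 and ZNF850. ZNF451, a SUMO E3 ligase, was the best expressed of them, at 142 ± 2.88 CPM in shControl and 119 ± 5.76 CPM in shTRIM21 (SD, n = 3), with a log2 fold change of -0.25 (SE 0.07; adjusted p = 0.0206). ZNF850 had the least spread, at 94.4 ± 0.594 against 79.9 ± 2.28 CPM (-0.24, SE 0.07; adjusted p = 0.0316). Each of these 10 lost its call when at least 1 library was left out, ZNF431 only without shTRIM21 replicate 3 (adjusted p = 0.0553) and the other nine in 4 to 6 of the 6 such fits, at adjusted p of 0.0508 to 0.224.

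**Figure D2:**
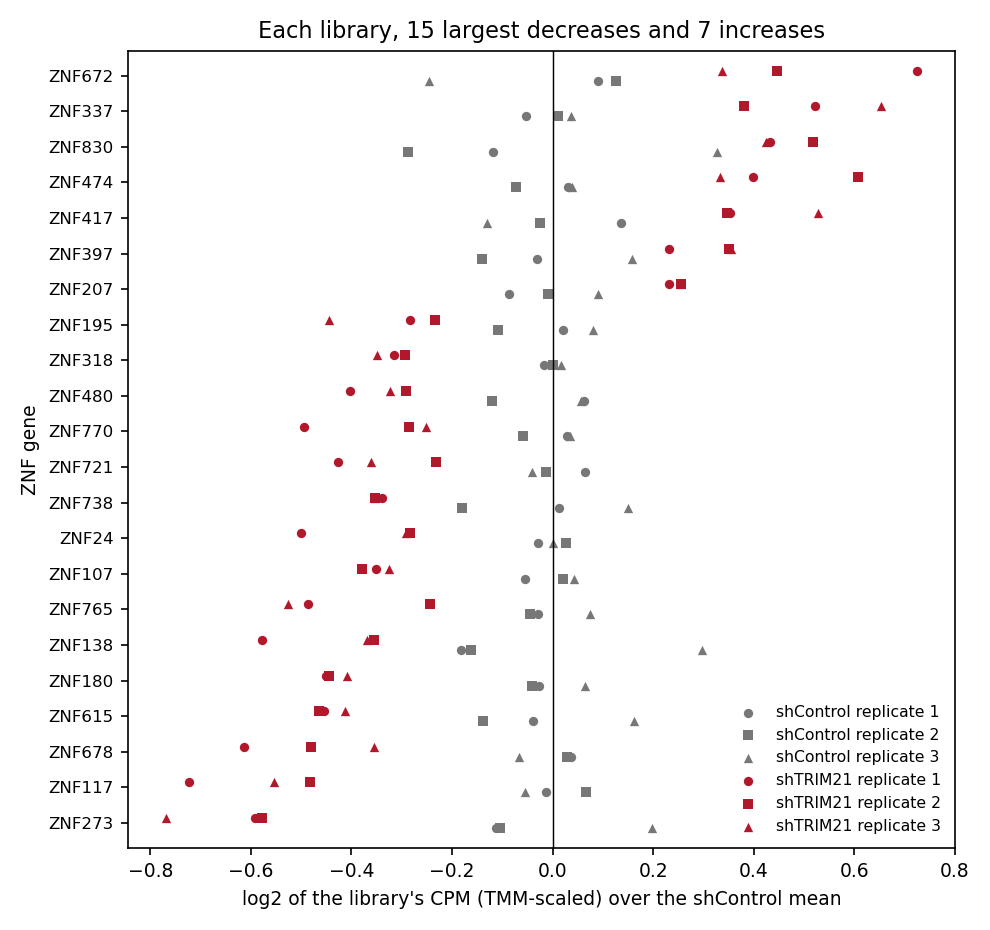
Each row is 1 of the 15 largest decreases or 7 increases, and each point is 1 library's TMM-scaled CPM relative to the gene's shControl mean on the log2 scale, grey for shControl and red for shTRIM21, with symbols for replicates 1 to 3. In all 22 rows the red points lie on one side of the grey points, nearest to touching in ZNF397 and ZNF830, where shControl replicate 3 comes close to the shTRIM21 libraries.

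ZNF337 and ZNF672 rose most. ZNF337 stood at 26.8, 28 and 28.5 CPM in shControl and at 39.9, 36.2 and 43.7 CPM in shTRIM21 (log2 fold change 0.52, SE 0.10; adjusted p = 0.00236). Its antisense partner ZNF337-AS1 gave 0.30 (SE 0.18; adjusted p = 0.366), and without known strand the reads of the pair cannot be told apart. ZNF672 stood at 69.5, 71.3 and 55.1 CPM against 108, 89.0 and 82.5 CPM, with a wide spread in both groups and no overlap (0.52, SE 0.10; adjusted p = 0.00404). ZNF207, known as BuGZ, binds the spindle and the checkpoint protein BUB3 and is no classical DNA reader. It stood at 146, 154 and 165 CPM in shControl and at 182, 185 and 185 CPM in shTRIM21 (0.25, SE 0.06; adjusted p = 0.0214). Leaving out shControl replicate 1 or 2 or shTRIM21 replicate 2 or 3 took it over the threshold, at adjusted p of 0.0776 to 0.132, and it was 0.0869 with library totals in place of TMM.

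The other four increases were in ZNF830, ZNF474, ZNF417 and ZNF397. ZNF830 stood at 22.4, 19.9 and 30.5 CPM against 32.8, 34.8 and 32.6 CPM (0.46, SE 0.13; adjusted p = 0.0333), with shControl replicate 3 close to the other group. ZNF474 stood at 18.9, 17.6 and 19 CPM against 24.4, 28.2 and 23.3 CPM (0.45, SE 0.12; adjusted p = 0.0216). ZNF417 stood at 26.6, 23.8 and 22.1 CPM against 30.9, 30.8 and 34.9 CPM (0.42, SE 0.11; adjusted p = 0.0212). It shares 37.7% of its windows with ZNF587, which gave 0.08 (adjusted p = 0.579), so its value is uncertain. All of these lost their calls when some single libraries were left out: ZNF830 in 5 of 6 such fits (adjusted p 0.0791 to 0.154), ZNF474 in 3 (0.0581 to 0.133) and ZNF417 in 3 (0.0542 to 0.118).

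ZNF397 and ZNF24 are close neighbours on chromosome 18 that went opposite ways. ZNF397 (chr18:35241030-35267133) encodes a SCAN-domain protein and rose from 46.7, 43.3 and 53.2 CPM to 56.0, 60.8 and 61.0 CPM (0.31, SE 0.09; adjusted p = 0.0341), whereas ZNF24 (chr18:35332212-35345482) fell as given above. The call for ZNF397 was lost without shControl replicate 1 or 2 or shTRIM21 replicate 2 or 3 (adjusted p 0.114 to 0.164), and ZSCAN30, which overlaps it on the opposite strand, gave -0.01 (adjusted p = 0.98).

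Members were next grouped by place, joining those on a chromosome with gaps of at most 500 kb. This gave 12 groups of 5 or more with 127 members in all. The chromosome 7 run described above had the lowest median, -0.39, and the largest share of decreases, 4 of 6. A group of 16 on chromosome 19 from ZNF101 to ZNF100 (chr19:19668796-21767628) came next in consistency of sign, with 15 negative log2 fold changes, a median of -0.17 and 3 decreases, ZNF66, ZNF431 and ZNF738. The largest group, 24 members from ZNF175 to ZNF761 (chr19:51571298-53458261), held 5 decreases, ZNF615, ZNF480, ZNF28, ZNF468 and ZNF765, with 8 positive values among the rest and a median of -0.16. ZNF28 and ZNF468 overlap on the same strand, and 8.45% and 7.23% of their windows occur in transcripts of other genes. These 2 decreases may therefore not be independent, which was not tested.

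The remaining groups had 0 or 1 decrease each. Those from ZNF724 to ZNF254 on chromosome 19 (4 of 5 negative, median -0.20), from ZNF695 to ZNF496 on chromosome 1 (4 of 5 negative, median -0.14) and from ZNF605 to ZNF268 on chromosome 12 (5 of 7 negative, median -0.12) had mostly negative values and no call. Among 15 members from ZNF627 to ZNF791 (chr19:11559374-12640098) none was called and the median was 0.03. In the group of 5 on chromosome 7 from ZNF398 to ZNF746, 4 were positive, with a median of 0.12 and no call. Of 16 members from ZNF264 to ZNF584, 11 were negative, ZNF551 fell, ZNF417 rose and the median was -0.09. The 121 members outside such groups had 9 decreases and 6 of the 7 increases, with a median of -0.02. Groups were not tested against each other.

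**Figure D3:**
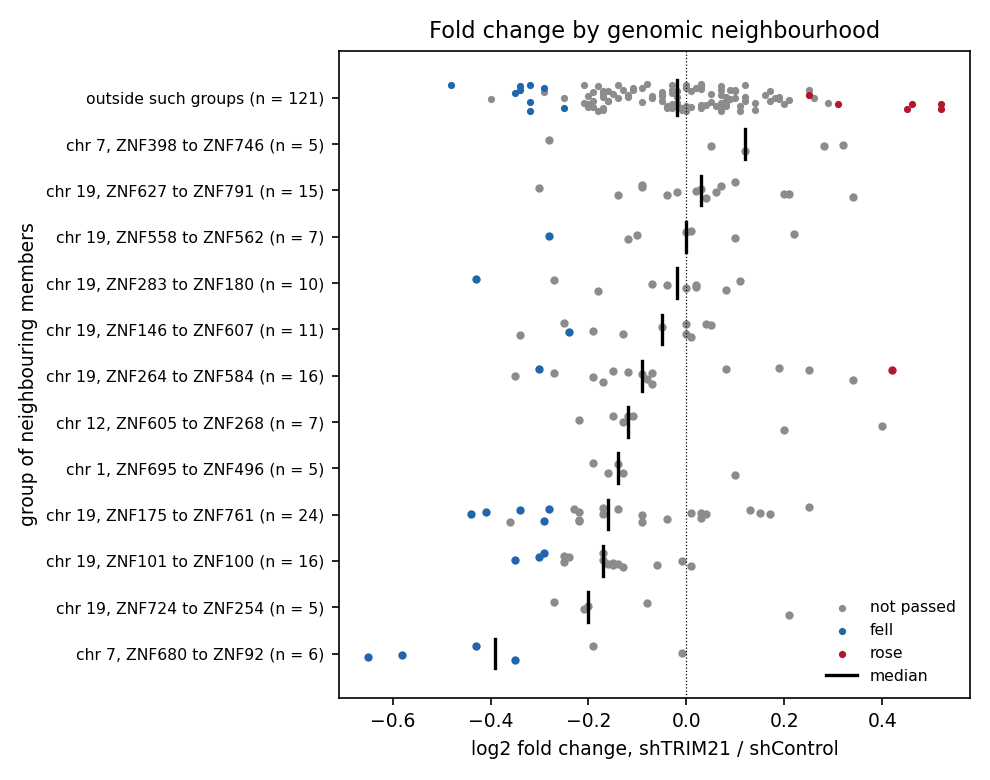
Each point is a member's log2 fold change, shTRIM21 over shControl, in rows by genomic group with the number of members, and the black bar is the row's median. The 6 members of the chromosome 7 run from ZNF680 to ZNF92 lie at or left of -0.01 with a median of -0.39, while the 121 members outside groups centre on -0.02.

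A KRAB pattern was found in 165 members, those whose translated coding sequence matched at least 8 positions of a 19-residue stretch typical of the domain. Of these, 17 fell and 2, ZNF337 and ZNF417, rose, with a median of -0.07 and 63.0% negative values. Among the 83 without it, 8 fell and 5 rose, with a median of -0.02 and 55.4% negative. The share of decreases was thus 10.3% and 9.64%, and the share of increases 1.21% and 6.02%. The SCAN domain, which lets such proteins pair with each other, was found in 11 members by at least 16 matches in 30 residues, and ZNF24 fell and ZNF397 rose among them.

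The number of fingers ran from 0 to 33 with a median of 11. Decreases were 1 of 6 members with none (16.7%) and 3 of 28 with 1 to 4 fingers (10.7%). They were 3 of 65 with 5 to 9 (4.62%), 12 of 94 with 10 to 14 (12.8%) and 6 of 55 with 15 or more (10.9%). Over all members the share was 10.1%, and over tested genes at 15 CPM or more 7.1%. The median log2 fold changes of the finger classes, in the same order, were 0.02, 0.01, -0.07, -0.03 and -0.09. Only fingers of the spacing given above were counted, so a member with none may hold others. On chromosome 19, 13 of 110 members fell (11.8%) and 1, ZNF417, rose, with a median of -0.09. Elsewhere 12 of 138 fell (8.7%) and 6 rose, with a median of -0.02. None of these differences between classes was tested.

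Base composition moved with the change. The transcripts of the members had a median GC content of 42.4%, below the 49.0% of all tested genes, and the median was 39.2% in the members that fell and 45.9% in those that rose. Across the 248 members, GC content and log2 fold change had a Pearson correlation of 0.33, against 0.17 across all tested genes. Genes are not independent replicates and share these 6 libraries, so this is a description. With GC content and length as offsets in the fit, 26 members fell and 15 rose, and 1852 genes were called in the whole table. The members' median was then -0.018, against -0.005 over all tested genes. In that fit ZNF431 (-0.16; adjusted p = 0.0665), ZNF451 (-0.16; 0.0567), ZNF468 (-0.20; 0.065) and ZNF850 (-0.16; 0.0703) did not pass, and ZNF107 passed at a smaller change (-0.23; 0.00835). The part of base composition in the changes was not tested further.

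The 3′ UTR word AGTGGAA was examined because earlier work on these same counts had picked it for its presence in genes that fell, so it is no independent evidence. Among all tested genes with an annotated 3′ UTR, 41.2% of the falling genes held it, 13.2% of the rising and 14.9% of the others. Their median 3′ UTR lengths were 2676, 1201 and 1326 bases, and a longer UTR has more room for any word. Among the members it was present in 5 of the 25 that fell, in 3 of the 7 that rose (42.9%) and in 42 of 213 that did not pass (19.7%), with median 3′ UTR lengths of 2279, 1090 and 2081 bases. These are few genes, and the members were not tested against the rest. The first site in each of these 8 genes is shown with the word in capitals and 8 bases on either side. Sites are given as the sense strand of the GENCODE transcript with the longest 3′ UTR, which may not be the form expressed here. The first 5 are from genes that fell and the last 3 from genes that rose.
ZNF678: cggggtctAGTGGAAggtgttta
ZNF770: ttaaatatAGTGGAAaatcctct
ZNF24: tactgtttAGTGGAAaactctgg
ZNF765: gtggaaaaAGTGGAAtcagctta
ZNF451: aatatataAGTGGAAgttatcag
ZNF672: cactgccaAGTGGAAcatgaggt
ZNF207: gggctcagAGTGGAAttgtagtg
ZNF397: aggaatacAGTGGAAaacaagac
The flanks were not compared between the directions. The 50 members with the word had a median log2 fold change of -0.04, as had the 198 without it. In all tested genes those medians were -0.08 and 0.02. ZNF207, with 4 sites in its longest annotated 3′ UTR, of 12127 bases, rose. For every gene the longest annotated 3′ UTR was the one searched and measured, whether or not HCT116 cells use it. A second word picked in the same way for genes that rose, GTGTCAC, was in 1 of the 7 rising members, 2 of the 25 falling ones and 11.7% of the others, against 21.8%, 10.3% and 9.2% in all tested genes.

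Promoter windows were found for 219 members, 19 that fell and 6 that rose, and the first RefSeq window of each gene was searched. The motif CCGGAAG, bound by ETS factors, was present on either strand in 44.7% of them, against 19.6% of 10513 tested genes and 10.7% of all 27305 promoters. It was present in 51.0% of the members with the KRAB pattern and 31.4% of those without. CCAATC, part of the NFY site, was in 38.3% and 15.7% of the same classes, against 19.9% of tested genes. GGGCGGG (SP1) was in 48.4% of the members and 52.8% of tested genes, and TATAAAA was in 0 of 219, against 2.03% of tested genes. RefSeq gives 45 of the 219 members more than 1 window, and with all windows searched, a choice made after seeing the data, the ETS motif was in 46.1% of the members and 22.4% of tested genes, and TATAAAA in 1 member. The ETS motif did not separate the falling members from the others, with 9 of 19 (47.4%) against 45.4% of those that did not pass, and 1 of the 6 rising members held it.

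**Figure D4:**
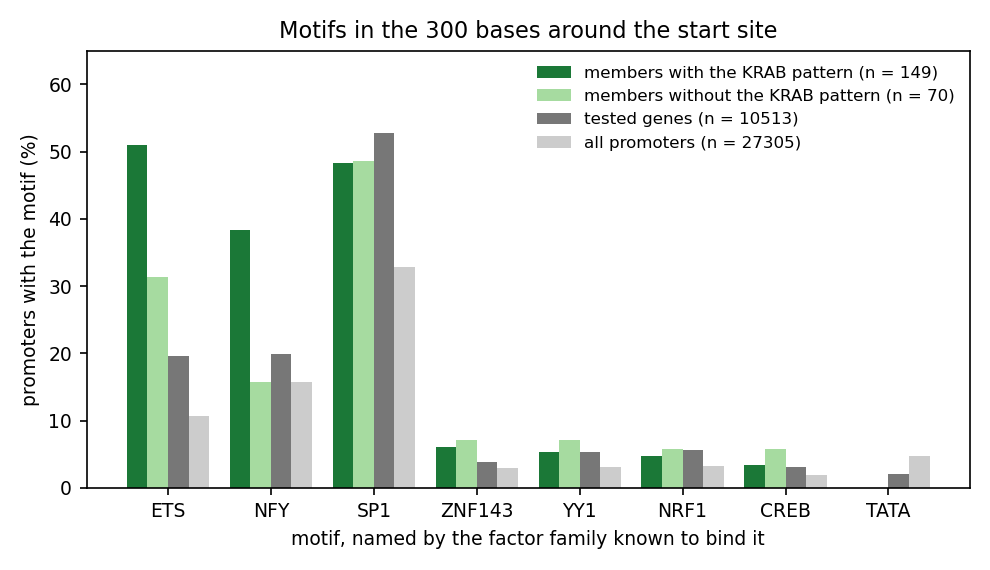
Bars give the percentage of 300-base promoter windows that hold each motif on either strand, for 149 members with the KRAB pattern, 70 without it, 10513 tested genes and 27305 promoters. The ETS bar of the KRAB class reaches 51.0% against 19.6% of tested genes, and the TATA bars of both member classes are at 0.

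Several well-studied members, picked for their known function and not by the rule for named genes, did not pass. ZNF143, an activator of many housekeeping promoters, stood at 20.7 ± 0.989 CPM in shControl and 23.4 ± 3.22 in shTRIM21 (SD, n = 3; log2 fold change 0.18, SE 0.12). ZNF217, an amplified oncogene of breast cancer, gave 0.09 (SE 0.10). ZNF598, an E3 ligase that marks collided ribosomes, gave 0.08 (SE 0.14), with the widest SE of these, and ZNF10 (KOX1), the source of the KRAB domain used in CRISPR interference, gave 0.20 (SE 0.09; adjusted p = 0.203). ZNF91, which represses SVA retrotransposons, stood at 95.2 ± 6.09 against 82.5 ± 8.97 CPM (-0.21, SE 0.08; adjusted p = 0.135). ZNF445, which helps to keep imprinting marks, gave -0.21 (SE 0.08; adjusted p = 0.104). For ZNF91 and ZNF445 every shTRIM21 library was below every shControl library.

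The members with the widest spread inside a group relative to their mean were ZNF460, ZNF44 and ZNF264. ZNF460 ranged from 26.3 through 18.4 to 14.3 CPM within shControl alone, and its shTRIM21 libraries, at 16.2, 21.3 and 18.2 CPM, fell inside that range. ZNF264 stood at 42.7, 35.1 and 41.6 CPM against 28.8, 35.0 and 46.0 CPM, with overlapping groups. ZNF44 gave 0.34 (SE 0.16; adjusted p = 0.211), and without shControl replicate 3, at 22.0 CPM against 16.6 and 12.8 in the other two, it passed at 0.57 (adjusted p = 0.0116).

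Near-copies and overlapping genes touch many members, since how the authors treated reads with several positions and strand is not known here. The median member shared 0.779% of its 50-base windows with other genes' transcripts, 87 shared none and 9 shared at least 50%. Exons of another annotated gene overlapped those of 128 members. Among the 120 members without such overlap, 11 fell and 2 rose.

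A list of 40 co-repressor and heterochromatin genes was examined, all of which were tested. It is not confined to genes that KRAB proteins recruit, and it was chosen with earlier results of these data known. Of the 40, 6 fell (15%), 0 rose and 34 did not pass, and the median log2 fold change was -0.03 with 24 negative values. Of all tested genes 4.66% fell and 4.43% rose, and of those at 15 CPM or more 7.1% and 5.79%. CBX5, which encodes HP1 alpha, fell most, from 418 ± 12.5 to 310 ± 15.2 CPM (-0.43, SE 0.06; adjusted p = 0.000158). TASOR (-0.31; adjusted p = 0.00888), a core subunit of the HUSH complex, RIF1 (-0.30; 0.00569), which controls replication timing, and ATF7IP (-0.30; 0.01), the partner of SETDB1, fell as well. UHRF1 (-0.21; adjusted p = 0.0328), which brings DNMT1 to hemimethylated DNA, and CHD4 (-0.21; 0.0382), the NuRD helicase, passed narrowly. TRIM28 itself, at 170 ± 24.7 against 178 ± 18.4 CPM, gave 0.07 (SE 0.09; adjusted p = 0.726), and SETDB1 gave 0.05 (SE 0.12; adjusted p = 0.84).

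Of the 6, CBX5 and RIF1 kept their calls when any single library was left out, and with the GC and length offsets RIF1 moved from -0.30 to -0.16 (adjusted p = 0.0118). ATF7IP missed the threshold when shControl replicate 2 (adjusted p = 0.0513) or shTRIM21 replicate 1 (0.0545) was left out, as did TASOR without shTRIM21 replicate 1 (0.0501) or 3 (0.0579). UHRF1 and CHD4 lost their calls in 5 of the 6 such fits each, with shControl replicate 3 the exception (adjusted p 0.0864 to 0.136 and 0.073 to 0.153). The list's decreases numbered 3 without shControl replicate 2, 2 without shTRIM21 replicate 1 and 3 without shTRIM21 replicate 3.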

How the data were processed

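RNA was depleted of ribosomal RNA and sequenced from 6 HCT116 libraries. The values are raw whole-number counts for each gene symbol, deposited by the authors without normalization. The genome was hg38 and the tools TopHat2 2.1.1, edgeR 3.38.1 and limma 3.52.2, per the submitters' processing notes. Not given in the sources used here are the counter, the annotation, the strand setting and the handling of multi-mapped reads, which bear on near-copies.

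Counts were fitted whole with edgeR 4.0.16 (R 4.3.3): filterByExpr (14002 genes kept), TMM, the quasi-likelihood test of shTRIM21 against shControl with no covariate, and Benjamini-Hochberg adjustment at 0.05. SE is the log2 fold change divided by the square root of F. "Rose" and "fell" mean past that threshold. The test was tested on simulated data.

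Sequences, domains and positions come from GENCODE 29 (GRCh38), which may not be the authors' annotation, and promoters from RefSeq. Named were TRIM21, up to 15 members past the threshold in each direction, the 6 best expressed, 3 on each side of the level, 3 of widest spread, and up to 8 called heterochromatin genes with TRIM28 and SETDB1. Others were added after their values were seen. Members and lists were chosen with earlier results of these data known.

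Alternatives changed the scaling, filter, test (DESeq2 1.42.0, limma-voom, a fold of 1.5), the membership level (10 or 20 CPM) and the libraries and genes included. Totals of 22656160 to 27123657 counts set the counting precision.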

Additional observations from a re-analysis of the deposited data

How the results depend on the processing

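Of the 32 called members, 0 changed sign in any fit and 10 kept their calls in every fit except the test against a fold of 1.5: ZNF107, ZNF117, ZNF180, ZNF24, ZNF273, ZNF337, ZNF672, ZNF678, ZNF721 and ZNF770. Against a fold of 1.5, 0 members rose, 0 fell, 0 heterochromatin genes fell and 21 genes of the whole table were called, fewer by the test's own construction. With library totals in place of TMM, 15 members fell. With GC and length offsets 15 members rose, and of the heterochromatin list 10 fell and 1 rose. Without members whose exons overlap another gene, 2 rose and 11 fell. The cause of these shifts was not tested, apart from the smaller set in the last. Leaving out 1 library gave 2 to 13 members that rose, 10 to 23 that fell, 2 to 6 heterochromatin genes that fell, 602 to 1737 called genes in the whole table and a members' median of -0.069 to -0.018. DESeq2 called 7 increases and 30 decreases, and limma-voom 7 and 23. Whether the replicate numbers pair the samples was not settled. The deviations of same-numbered libraries correlated at 0.096, -0.0123 and 0.0907, and those of differently numbered libraries at -0.121 to 0.048. With the replicate number as a block, 8 members rose, 32 fell and 1699 genes were called in all. TRIM28 ran from -0.05 to 0.14 over the fits. Depth bears most on the lowest members, such as ZNF44, which rests on 313 to 617 counts per library.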
